A study of Mus musculus with 4 samples.

Results

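Interferon-stimulated and antigen presentation genes were described in primary fibroblasts cultured from the skin of newborn mice. The list held 39 genes chosen by name, with earlier results of these data known. Of these, 36 had at least 1 probe set whose annotation named that gene alone. These 36 were members among 18193 named genes on the array, and 34 of them were bright enough to enter the test, among 13271 genes tested. Isg15, Oas1g and Ifi44 were not analysed here because no probe set named them singly. Mx1 and Oas3 were measured but lay below the filter on dim probe sets. Where several probe sets named a gene, the one brightest on average over the arrays stands for it, and all values are on the log2 scale.

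The cells came from adam9 -/- mice, which lack the cell-surface metalloprotease ADAM9, or from adam9 +/+ mice, both at postnatal day 1. Each genotype had 2 isolations (n = 2 in each group), measured on 1 array each, after 48 h of culture without any treatment. No interferon or other agent was given to either group, so the values are baseline levels. The strain and sex are not stated, and how many animals gave each isolation is likewise unstated, so p-values measure only the spread between isolations, which may be technical.

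Interferons are secreted proteins that warn cells of infection. Type I interferons signal through the receptor pair IFNAR1 and IFNAR2 to JAK1 and TYK2, which activate a transcription factor complex that includes STAT2 and IRF9. That complex binds the interferon-stimulated response element (ISRE) in promoters and switches on antiviral genes. Interferon gamma signals through its own receptor, JAK1 and JAK2 to promoters with the GAS element and raises the immunity-related GTPases, the immunoproteasome and the MHC class I machinery that shows peptides to T cells. Fibroblasts respond to both classes and keep many of these genes at a low tonic level without infection.

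The promoters of several members are shown because these letters are what the interferon-activated factors read. Members with 1 or several such matches can then be compared. Each promoter shown holds a match, while windows of other members, such as Cmpk2 and Tap1, held none. Promoter windows, from 250 bases before the annotated start to 50 after it, came from RefSeq on GRCm38.p6 and matched 32 of the 39 listed genes. The ISRE core was searched on both strands as GAAA, any 2 bases and GAAA, and the GAS element as TTCNNNGAA, which reads the same on both strands, with overlapping matches counted. The ISRE core was present in windows of 17 of the 32 genes (53.1%), against 3.99% of all 27025 genes with a window. The GAS letters were present for 6 of the 32 (18.8%), against 9.55% of all genes. Below are the 170 bases before the start, 5′ to 3′ on the strand of the gene, with matches of either motif in capitals.
Ifit1 (chr19:34640719-34640888, plus strand): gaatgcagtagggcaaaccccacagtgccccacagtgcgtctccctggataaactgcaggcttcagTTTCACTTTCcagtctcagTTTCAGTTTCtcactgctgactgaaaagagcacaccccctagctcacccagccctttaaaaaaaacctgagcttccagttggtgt
Ifit3 (chr19:34583359-34583528, plus strand): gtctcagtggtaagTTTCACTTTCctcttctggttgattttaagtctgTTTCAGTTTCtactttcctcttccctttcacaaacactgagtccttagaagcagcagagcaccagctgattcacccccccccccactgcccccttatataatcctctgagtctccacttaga
Gbp2 (chr3:142620493-142620662, plus strand): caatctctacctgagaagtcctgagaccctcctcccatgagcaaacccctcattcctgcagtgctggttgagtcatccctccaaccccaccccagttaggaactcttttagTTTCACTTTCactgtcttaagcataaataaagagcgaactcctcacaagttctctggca
Oas1a (chr5:120907526-120907695, minus strand): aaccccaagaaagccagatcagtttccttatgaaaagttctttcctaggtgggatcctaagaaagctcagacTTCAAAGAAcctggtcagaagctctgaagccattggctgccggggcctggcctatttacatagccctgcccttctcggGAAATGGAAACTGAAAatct
Rsad2 (chr12:26456453-26456622, minus strand): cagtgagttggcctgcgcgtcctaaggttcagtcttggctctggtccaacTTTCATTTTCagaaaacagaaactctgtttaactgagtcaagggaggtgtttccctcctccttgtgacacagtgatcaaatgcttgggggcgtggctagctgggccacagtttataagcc
B2m (chr2:122147517-122147686, plus strand): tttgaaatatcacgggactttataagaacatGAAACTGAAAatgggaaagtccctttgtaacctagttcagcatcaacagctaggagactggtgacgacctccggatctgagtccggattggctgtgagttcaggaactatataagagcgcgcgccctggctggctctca
Psmb8 (chr17:34198025-34198194, plus strand): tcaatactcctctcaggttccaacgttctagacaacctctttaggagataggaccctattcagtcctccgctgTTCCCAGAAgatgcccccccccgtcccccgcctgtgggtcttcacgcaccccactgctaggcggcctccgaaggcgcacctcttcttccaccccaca
Ifit1 and Ifit3 each held 2 ISRE cores, read on the opposite strand, at -104 and -85 in Ifit1 and at -156 and -122 in Ifit3 (first base, counted back from the start). Gbp2 held 1 at -59 and Rsad2 1 at -120. In Oas1a a pair of overlapping cores began at -20 and -14, and a GAS match lay at -98. B2m held 1 core at -139, while Psmb8 held a GAS match at -97 and no ISRE core in its window. A match is a description of the letters and was not tested as a binding site. Tested members whose window held the ISRE core (14 genes) had a median difference between isolations 1 and 2 of 0.37 for the knockout and 0.27 for the wild type, and those without it (14 genes) had 0.40 and 0.38. Their median difference between genotypes was -0.019 with the core (7 of 14 positive) and 0.30 without it (10 of 14 positive), and the gap between these groups of genes was not tested.

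The arrays matched their labels for the targeted gene. Adam9 stood at 8.33 and 8.55 in the knockout and at 11.58 and 11.70 in the wild type (log2 difference -3.20, SE 0.147, limma adjusted p = 0.0242), although no source used here says whether its probe set lies in the deleted part. Sex-linked genes divided the arrays exactly as genotype did, with Xist at 10.38 and 10.40 in the knockout and 4.29 and 4.32 in the wild type, and Y-linked Eif2s3y at 2.75 and 2.67 against 9.19 and 9.31. Kdm5d and Uty, also Y-linked, differed in the same direction, by -5.02 and -4.69. Genotype and sex therefore cannot be told apart in any comparison below. Wild-type isolation 1 stood apart in markers of macrophages, whose values stand beside the differences between isolations.

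No member passed the test between genotypes. The limma test over all genes tested, with Benjamini-Hochberg adjustment, called 0 members at an adjusted p under 0.05, against 0.0678% of all genes (9 genes), and the adjusted p of the members ran from 0.235 to 0.989. The calls among all genes were 0.0151% in the higher and 0.0527% in the lower direction, with 0 members in each. An unadjusted p under 0.05 was reached by 5 members, 14.7% of those tested, against 11.4% of all genes. The median difference of the members (knockout minus wild type) was 0.10, against 0.0027 for all genes tested, and 23 of the 34 were positive (67.6%, against 50.5%). That median depended on single arrays. It was -0.05 with knockout isolation 1 left out and 0.33 with knockout isolation 2 left out, and leaving out wild-type isolation 1 or 2 gave 0.21 or 0.018. A gap of at least 1 log2 unit without overlap between genotypes was held by 0 members on the higher side (against 2.68% of all genes) and by 1, Ifit3, on the lower side (2.94%, against 1.73%). The 4 arrays spanned at least 1 log2 unit for 10 members (29.4%, against 13.3%): Irf9, Ifit1, Ifit3, Oas1a, Oasl2, Xaf1, Trim30a, Gbp2, Psmb8 and Psmb9.

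**Figure D1:**
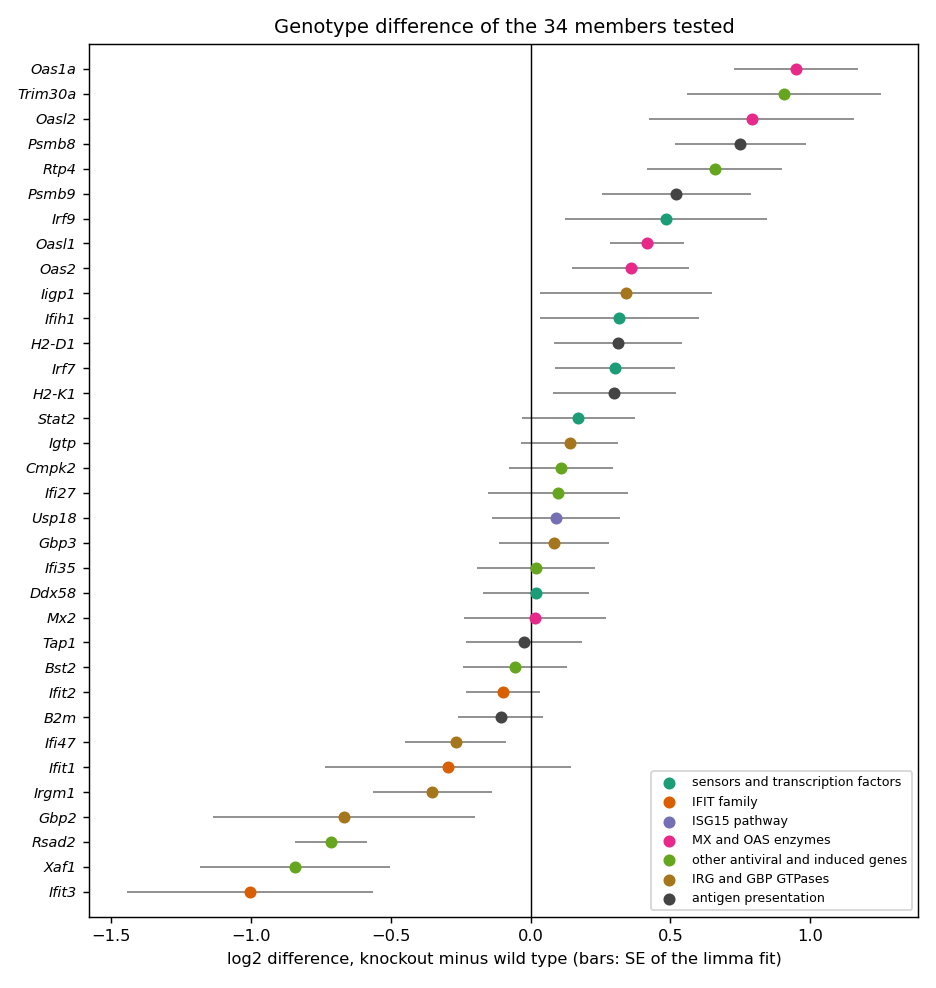
Difference between genotypes for the 34 tested members, as the knockout mean minus the wild-type mean on the log2 scale (2 arrays each); bars are the standard error of the limma fit and colours mark the members' roles. The values run from -1.003 for Ifit3 to 0.95 for Oas1a, and no member passed the test.

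Most members shared an order of the isolations within each genotype, and most of the fibroblast markers given below had the same order. Isolation 1 stood above isolation 2 for 28 of 34 members in the knockout (82.4%, against 53.5% of all genes tested) and for 30 of 34 in the wild type (88.2%, against 50.2%). In both genotypes at once this held for 27 of 34 (79.4%, against 28.3%), and the opposite in both held for 3, Ifit2, Ifi47 and Irgm1 (8.82%, against 24.1%). The median of isolation 1 minus isolation 2 was 0.39 for the knockout and 0.29 for the wild type, against 0.025 and 0.0013 for all genes tested. Knockout isolation 1 was the highest array for 23 of 34 members (67.6%, against 25.6%), and wild-type isolation 1 for 7 (20.6%, against 21.2%). Wild-type isolation 2 was the lowest for 19 (55.9%, against 26%). The labels do not tie isolation 1 of one genotype to isolation 1 of the other, and this difference between arrays was not tested. Because the members were chosen with earlier results of these data known, these shares only describe the chosen genes.

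**Figure D2:**
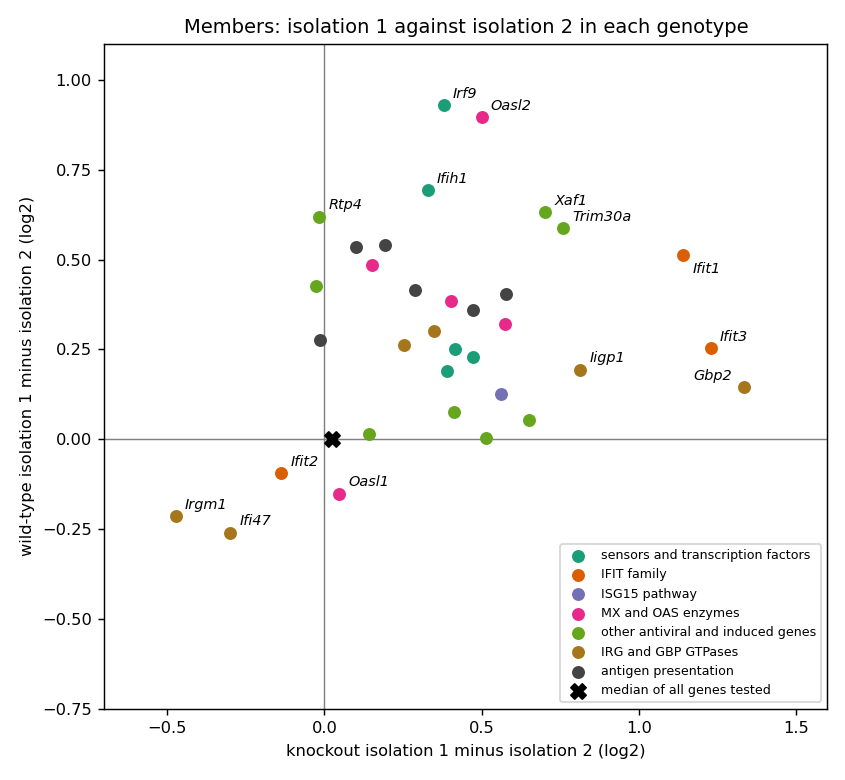
Each point is 1 of the 34 tested members, with knockout isolation 1 minus isolation 2 on the horizontal axis and wild-type isolation 1 minus isolation 2 on the vertical axis, both in log2 units; the cross marks the median of all genes tested, at 0.025 and 0.0013. The upper right quadrant holds 27 members, and Ifit3, Gbp2 and Ifit1 lie farthest to the right.

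Gaps of at least 0.5 were mostly in different genes in each genotype. Knockout isolation 1 exceeded isolation 2 by at least 0.5 for 12 members (35.3%, against 10.1% of all genes), and wild-type isolation 1 exceeded isolation 2 by as much for 9 (26.5%, against 6.44%). Ifit1, Oasl2, Trim30a and Xaf1 were in both, 4 of the 12 and 4 of the 9. This overlap was not tested. It stands beside the 26.5% of all tested members that had the wild-type gap. In the reverse direction 0 members reached 0.5 in either genotype, against 6.8% and 3.78% of all genes.

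Markers of macrophages and leukocytes stood apart in wild-type isolation 1. The 20 macrophage and leukocyte markers had a median of 8.50 in wild-type isolation 1, while it was 4.62 in the other wild-type array and 4.31 and 4.37 in the knockout arrays, and 19 of the 20 were highest in wild-type isolation 1. Their summed linear value was 13309 in that array, 880 in the other wild-type array, and 722 and 638 in the knockout arrays. Ctss, a lysosomal protease of macrophages, stood at 3.88 and 4.23 in the knockout and at 10.07 and 4.58 in the wild type, and C1qb, a chain of complement C1q, at 3.53, 3.37, 9.46 and 3.77 in the same order. Single markers differed between the knockout arrays in both directions, with Csf1r, the receptor of a macrophage growth factor, at 7.37 and 6.47 and the leukocyte tetraspanin Cd53 at 4.72 and 6.18. The part of the macrophage markers in either gap between isolations was not tested. In bulk cultures, fewer cells of a type and less RNA per cell cannot be told apart.

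The 11 fibroblast markers, collagens and surface proteins of dermal fibroblasts, were present in all arrays, with medians of 12.30 and 12.45 in the knockout and 12.38 and 11.72 in the wild type. Lum, the matrix proteoglycan lumican, stood at 12.81 and 12.78 in the knockout and at 12.38 and 10.13 in the wild type, and the PDGF receptor Pdgfra at 12.30, 12.31, 11.93 and 10.35. Wild-type isolation 2, the lowest array for most interferon genes, thus also had the lowest median of these markers. Isolation 1 was higher than isolation 2 for 9 of the 11 markers in the knockout and for 10 of the 11 in the wild type. The medians of isolation 1 minus isolation 2 were 0.044 and 0.35. The 6 MHC class II genes of professional antigen-presenting cells had medians from 4.71 to 4.80 in the 4 arrays, including the array with the macrophage markers, where Cd74, the invariant chain, read 5.49 against 5.01 to 5.17 elsewhere, and H2-Ab1 differed between genotypes by -0.25. Markers of dendritic and Langerhans cells (2 tested, Zbtb46 at 0.10 and Flt3 at -0.06), lymphocytes (2 tested, Cd3e at -0.24 and Cd3d at 0.0016), keratinocytes (4 tested, Dsp at -2.49 and Krt10 at 0.39) and endothelium (3 tested, Tek at 0.66 and Kdr at -0.25) gave 0 calls by limma. Dsp read 3.06 and 3.55 in the knockout, below the filter value of 4.17, and 4.84 and 6.75 in the wild type. The keratinocyte markers Krt5 and Epcam, also tested, differed by -0.0063 and 0.011. The 3′ probe set of the beta-actin control exceeded the 5′ one, which tracks RNA integrity, by 0.147 and 0.198 in the knockout arrays and 0.218 and 0.149 in the wild type, so the order of the isolations there was opposite in the genotypes. For the Gapdh control the 3′ minus 5′ value was -0.232 and -0.273 in the knockout arrays and -0.265 and -0.234 in the wild type, which orders the isolations the reverse way in each genotype.

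**Figure D3:**
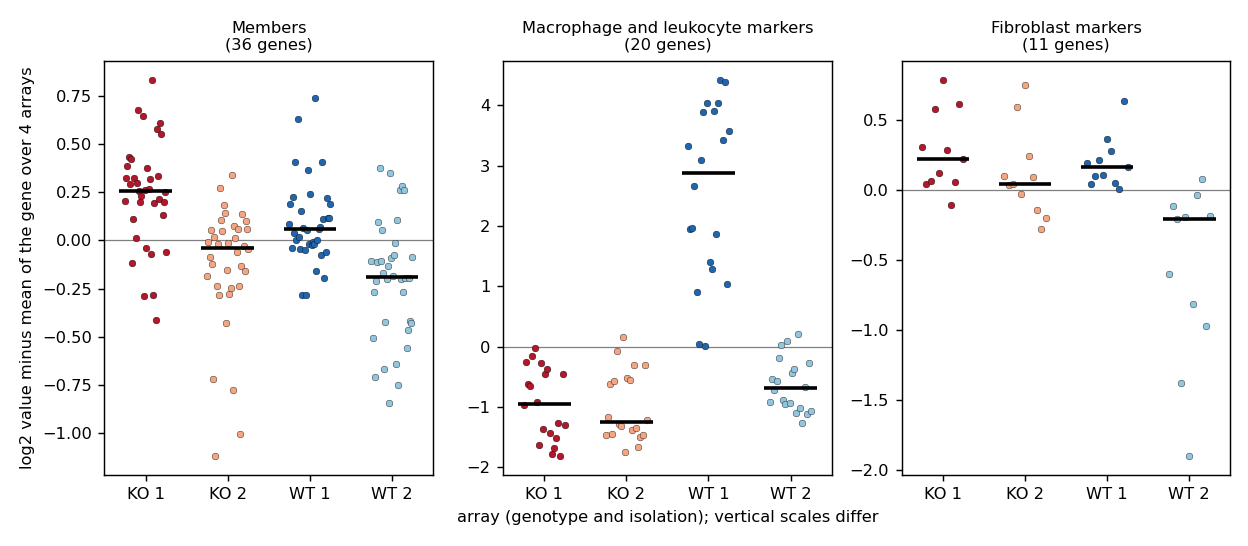
Each point is a gene, plotted as its log2 value minus its mean over the 4 arrays, for the 36 measured members, 20 macrophage and leukocyte markers and 11 fibroblast markers; KO is the Adam9 knockout, WT the wild type, the number is the isolation, and black bars are medians. The members are highest in KO 1 and lowest in WT 2, the macrophage markers are high in WT 1 alone, and the vertical scales differ between panels.

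Among sensors and transcription factors, 5 of 5 members had knockout values that overlapped the wild-type ones, while 23% of all genes tested stood higher and 22% lower in the knockout without overlap. All 5 stood higher in isolation 1 than in isolation 2 in both genotypes. Irf9, the DNA-binding partner in the type I interferon complex, stood at 8.63 and 8.25 in the knockout and at 8.42 and 7.49 in the wild type. Wild-type isolation 2 was apart from the other 3 arrays, and the difference of 0.48 (SE 0.360, limma adjusted p = 0.642) was 0.019 without it. Ifih1, which encodes the RNA sensor MDA5, had the same order, with 8.90, 8.57, 8.76 and 8.07. Ddx58, the RNA sensor RIG-I, differed by 0.018, Stat2 by 0.17 and Irf7, the factor that amplifies interferon production, by 0.30 (limma adjusted p from 0.625 to 0.983 over the group). The value of Irf7 was 0.066 without knockout isolation 1. For Ddx58 the sign depended on the probe set, since another of its 3 probe sets gave -0.18.

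Of the IFIT genes, whose products bind viral RNA and block its translation, Ifit3 and Ifit1 were lowest in knockout isolation 2. Ifit3 stood at 9.22 in knockout isolation 1, 7.99 in isolation 2, 9.73 in wild-type isolation 1 and 9.48 in isolation 2. Both knockout values lay under both wild-type values, as for 22% of all genes, and the knockout mean was 8.60 ± 0.869 (SD, n = 2) against 9.61 ± 0.180, the lowest difference among the members (-1.003 on the log2 scale, SE 0.441, limma adjusted p = 0.485). It was -0.39 without knockout isolation 2. Ifit1 stood at 8.94 and 7.80 in the knockout and 8.92 and 8.41 in the wild type, so knockout isolation 1 matched wild-type isolation 1, and the difference of -0.30 (SE 0.439, limma adjusted p = 0.823) was 0.27 without knockout isolation 2. Ifit2 did not share this, with 7.84, 7.98, 7.96 and 8.06 in the same order, although it lies next to Ifit3 on chromosome 19. Usp18, the protease that removes ISG15 from proteins and dampens the type I receptor, read 8.74 and 8.18 in the knockout and 8.44 and 8.31 in the wild type.

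In the OAS family 5 of 5 measured members stood higher in the knockout without overlap, as did 23% of all genes tested, and none passed the test. Oas3 was too dim to be tested, and the genotypes nearly touched for Oas2 and Oasl2. These enzymes sense double-stranded RNA, and the catalytically active ones make the messenger that activates RNase L. Oas1a stood at 8.81 and 8.41 in the knockout and at 7.85 and 7.47 in the wild type, without overlap. Its difference was the largest positive one among the members, 0.95 or 1.93-fold (SE 0.223, limma adjusted p = 0.307), and leaving out any 1 array gave 0.75 to 1.15. Oasl2 stood at 8.17, 7.67, 7.58 and 6.68 in the same order, a difference of 0.79 (SE 0.367, limma adjusted p = 0.497) that was 0.34 without wild-type isolation 2. Knockout isolation 2 and wild-type isolation 1 differed by little there, 7.67 against 7.58.

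Smaller gaps of the same sign were seen in the other measured OAS members. Oas2 read 6.34 and 6.19 in the knockout and 6.15 and 5.66 in the wild type, and Oasl1, an inactive relative, read 6.10 and 6.05 against 5.58 and 5.73 (limma adjusted p = 0.565 and 0.392). The difference of 0.36 for Oas2 was 0.12 without wild-type isolation 2. Oas3, under the filter, read 4.19 and 4.05 against 3.95 and 3.80. Among OAS genes outside the members, Oas1b differed by 0.27 without overlap. Oas1c overlapped between genotypes, with 5.24 and 4.86 in the knockout and 4.74 and 5.05 in the wild type. Across all members tested, 8 stood higher in the knockout without overlap (23.5%, against 23% of all genes) and 4 lower (11.8%, against 22%). These shares of the members were thus at or under the background. The 4 lower ones include Xaf1, whose other probe set went the other way. The antiviral GTPase Mx2 overlapped (6.45, 5.87, 6.31 and 5.98), and Mx1, whose gene is disrupted in many laboratory strains, read 3.23 to 3.32 in all arrays, below the filter.

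Other antiviral genes went in both directions. Rsad2, which encodes viperin, an enzyme that makes a chain-terminating nucleotide, stood at 5.96 and 5.82 in the knockout and at 6.61 and 6.599 in the wild type. The isolations were close within each genotype in this probe set. The gap of -0.71 (SE 0.129, 1.64-fold) had the smallest p of any member, with a limma adjusted p of 0.235. The other 2 probe sets of Rsad2 gave -0.73 and -0.94. Their knockout isolations were farther apart, at 4.56 and 4.26 for the first and 4.48 and 3.76 for the second. Cmpk2, the nucleotide kinase next to Rsad2 on chromosome 12, did not share the pattern, with 5.53 and 5.11 in the knockout and 5.25 and 5.17 in the wild type.

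Trim30a, a ring finger protein that restrains inflammatory signalling, stood at 8.76 and 8.0004 in the knockout and at 7.77 and 7.18 in the wild type. The difference of 0.91 (SE 0.346, limma adjusted p = 0.446) had the same sign in its second probe set (0.83), and was 0.53 without knockout isolation 1. Rtp4, an interferon-induced chaperone of receptors, read 9.31 and 9.33 against 8.97 and 8.35, a difference of 0.66 (SE 0.241, limma adjusted p = 0.433) that was 0.35 without wild-type isolation 2 and 0.40 when its probe sets were averaged.

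Xaf1, an antagonist of the apoptosis inhibitor XIAP, gave opposite answers by probe set. The brighter one read 10.23 and 9.53 in the knockout and 11.04 and 10.41 in the wild type (difference -0.84, SE 0.341, limma adjusted p = 0.462). The other read 10.21, 9.64, 9.43 and 8.86, a difference of 0.78, and their mean differed by -0.03. Both probe sets placed isolation 1 above isolation 2 in each genotype. No direction by genotype can be given for this gene. Bst2, the tether that holds budding viruses at the cell surface, Ifi27, Ifi35 and Cmpk2 differed by -0.06 to 0.11 between genotypes.

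The immunity-related GTPases and guanylate-binding proteins, which attack the vacuoles of intracellular pathogens, split into those with and without the isolation pattern. Gbp2 stood at 9.55 in knockout isolation 1, 8.22 in isolation 2, and 9.62 and 9.48 in the wild type. Only knockout isolation 2 was apart, and the second probe set repeated this with 9.0001, 7.74, 9.06 and 9.04. The difference of -0.67 (SE 0.469, limma adjusted p = 0.623) was -0.0001 without that array. Iigp1 was high in knockout isolation 1 instead, with 8.33, 7.51, 7.67 and 7.48.

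Irgm1, a regulator of the other GTPases of its family, ran the other way from most members. It read 8.75 and 9.22 in the knockout and 9.23 and 9.45 in the wild type, without overlap (difference -0.35, SE 0.212, limma adjusted p = 0.573), and differed by -0.12 without knockout isolation 1. Ifi47 had its lowest value in the same array, with 7.06, 7.36, 7.35 and 7.61. Igtp and Gbp3 differed by 0.14 and 0.083 and followed the common order of the isolations, and the value of Igtp was 0.0078 without wild-type isolation 2.

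Antigen presentation genes stood lowest in wild-type isolation 2, for all 6 members. Psmb8, a catalytic subunit of the immunoproteasome, stood at 8.88 and 8.41 in the knockout and at 8.08 and 7.72 in the wild type. Psmb9, another such subunit, stood at 7.16 and 6.58 against 6.55 and 6.15. Neither overlapped between genotypes, with differences of 0.75 (SE 0.234, limma adjusted p = 0.392) and 0.52 (SE 0.267, limma adjusted p = 0.530). Knockout isolation 2 and wild-type isolation 1 were close for Psmb9, whose difference was 0.23 without knockout isolation 1. The mean over probe sets gave 0.44 for Psmb8, but its other probe set read 2.94 to 3.16, below the filter.

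Tap1, a subunit of the transporter that carries peptides to MHC class I molecules, lies between Psmb9 and Psmb8 on chromosome 17 and did not share their gap. It read 8.11 and 7.82 in the knockout and 8.20 and 7.79 in the wild type, a difference of -0.02. The MHC class I heavy chain H2-K1 read 11.48, 11.38, 11.40 and 10.86, and H2-D1 read 12.05, 11.85, 11.91 and 11.37, so that 3 arrays were close and wild-type isolation 2 was apart. Their differences of 0.30 and 0.31 were 0.032 and 0.041 without that array. That of H2-D1 was 0.15 with its probe sets averaged, some of which lay below the filter. Every H2-K1 probe set is of the type that can detect related sequences (name ending in _x_at), and 1 further probe set names both genes, so their signals may not be separate. B2m, the light chain shared by all class I molecules, was nearly flat at 13.14, 13.16, 13.39 and 13.12 (difference -0.11, SE 0.152, limma adjusted p = 0.816).

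**Figure D4:**
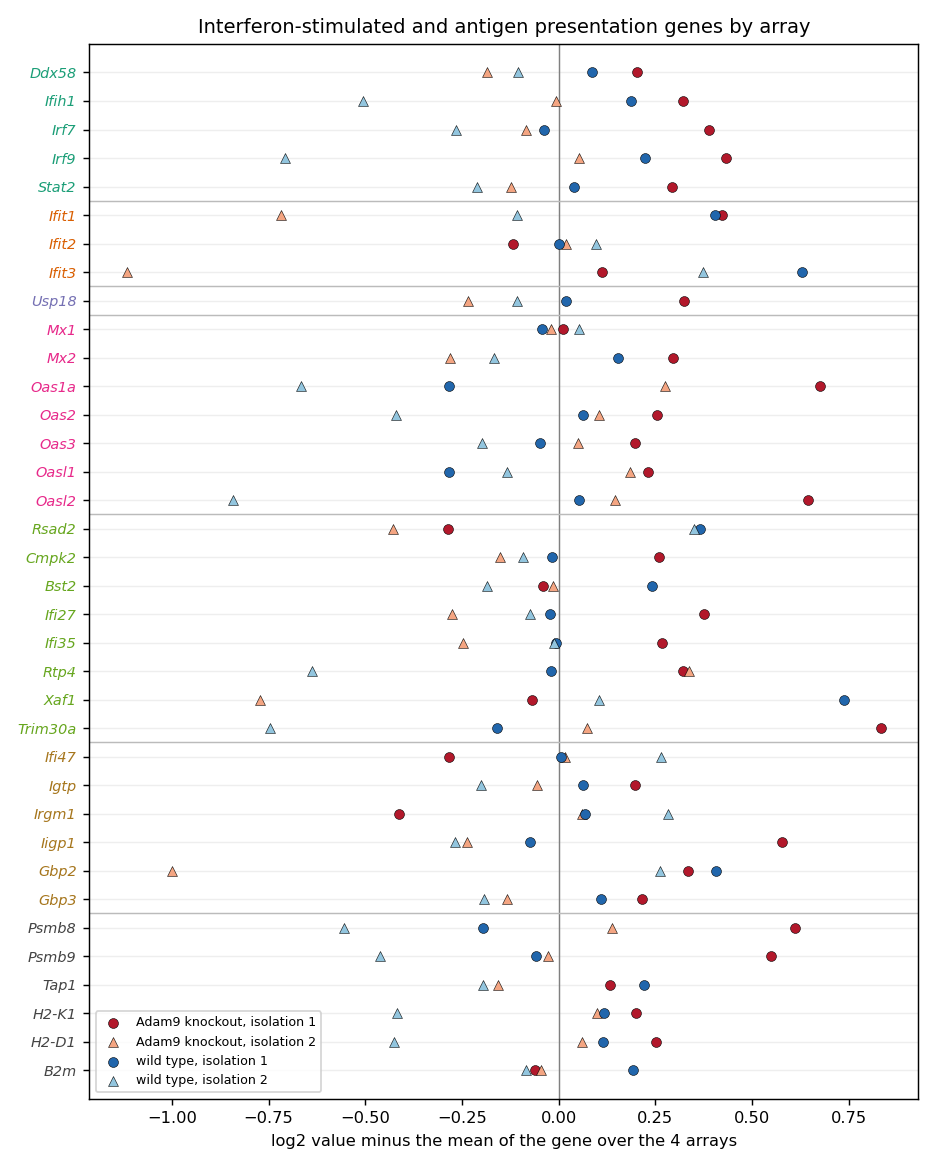
Every measured member (36 genes, grouped by role) in each array, plotted as the log2 value minus the gene's mean over the 4 arrays; red marks are knockout, blue marks wild type, circles isolation 1 and triangles isolation 2. Circles lie to the right of triangles of the same colour for most genes, while Ifit3, Gbp2 and Ifit1 are lowest in knockout isolation 2 and Irf9 and Oasl2 are lowest in wild-type isolation 2.

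The remaining steps of the pathway gave 0 calls by limma in either direction. The 4 interferon ligand genes measured (Ifnb1, Ifna2, Ifna4 and Ifng) all lay below the filter, with values of 2.24 to 4.11, and were not tested. All 9 receptor and kinase genes were tested, with a median difference of 0.034. Jak2 read 8.69 and 8.57 in the knockout and 8.18 and 8.16 in the wild type (difference 0.46, SE 0.128, limma adjusted p = 0.354), and Ifngr1, a chain of the interferon gamma receptor, read 9.61 and 9.59 against 9.38 and 9.07 (0.38, and 0.22 without wild-type isolation 2). Among these receptor and kinase genes, isolation 1 was higher for 7 of 9 in the wild type (against 50.2% of all genes tested). In the knockout it was higher for only 4 of 9 (against 53.5%).

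Of 11 other sensors and adaptors tested, 6 had positive differences (median 0.072). Cgas, the DNA sensor, read 6.74 and 7.59 against 6.39 and 6.12 (difference 0.91, limma adjusted p = 0.426), with knockout isolation 2 the highest array and a difference of 0.49 without it, and Zbp1 differed by 0.82. Of 5 other transcription factors tested, 4 were positive (median 0.18), with Nlrc5, the activator of MHC class I genes, at 0.42 (0.17 without wild-type isolation 1) and Irf1 at 0.23. Of 6 negative regulators, 4 were positive (median 0.069). Socs3, an inhibitor of cytokine receptor signalling, read 7.09 and 7.70 in the knockout and 6.30 and 5.48 in the wild type (difference 1.50, SE 0.365, limma adjusted p = 0.314), and the phosphatase Ptpn2 differed by 0.56. Socs3 differed by 0.64 without the _x_at and _s_at types of probe set, and Ptpn2 by 0.35 when its probe sets were averaged.

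A separate list of 33 tested interferon-stimulated genes had a median genotype difference of 0.20, with 25 positive and none called. Slfn5, a schlafen family gene, read 6.98 and 6.49 in the knockout and 5.28 and 3.999 in the wild type (difference 2.09, SE 0.479, limma adjusted p = 0.298), and Sp100, a nuclear body protein, read 7.13 and 6.41 against 5.87 and 5.14 (1.26, limma adjusted p = 0.370). The difference of Slfn5 was 0.84 with its probe sets averaged. The isolation order was also present there. Isolation 1 was higher for 25 of the 34 measured genes in the knockout and 29 of 34 in the wild type, with medians of 0.24 in each. Among 5 other interferon-gamma GTPases, isolation 1 was higher in 5 and 4, and Gm4951 and Gbp7 differed between genotypes by 0.22 and 0.15. Among 12 other antigen presentation genes it was higher in 10 and 8. Cd1d1, a lipid-presenting class I relative, read 9.15 and 7.90 in the knockout and 9.10 and 8.998 in the wild type, low in knockout isolation 2 alone as for Gbp2, and H2-M3 differed by 0.25.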

How the data were processed

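Total RNA of 4 isolations was measured on Affymetrix 3' arrays. The values the authors deposited, 1 for each probe set of an array, lay between 1.699 and 14.37 with close medians and were read as log2. They came from Affymetrix Expression Console, per the submitters' processing notes; no source used here states its version, algorithm or log base, and with another base the folds, not the order of values, would change. Of 45101 probe sets, 64 were controls, 34958 named 1 gene, 932 named several, and 9160 that were no controls named none; platform symbols were updated by Entrez identifier for 34754 through RefSeq.

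Genes whose probe set mean was above the 40th percentile of non-control probe sets (4.17) were fitted together with limma 3.58.1 in R 4.3.3 (no block, default settings, 2 residual and 2.38 prior degrees of freedom) and p-values adjusted over all 13271. A permutation test of 2 against 2 arrays cannot go under p = 0.333 and was not used. The procedure was tested on simulated data. Per-array values are given for members spanning at least 1 log2 unit over the arrays, and for examples by role; from other lists, the 2 genes with the largest difference. Members and lists were chosen with earlier results of these data known. Precision is limited by having 4 arrays. The alternatives tried were a block on isolation number, no filter or the 60th percentile, 3 normalizations, the mean over probe sets, leaving out _x_at and _s_at probe sets, and leaving out each array.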

Additional observations from a re-analysis of the deposited data

How the results depend on the processing

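Under 12 alternatives, 0 members were called by limma, with adjusted p from 0.134 upward. With the isolation number as a replicate block, 2 genes of all tested were called in place of 9. With any 1 array left out that count was 0. The members lower in the knockout without overlap then ranged from 6 to 12 (12 without knockout isolation 1), those higher from 8 to 24 (24 without knockout isolation 2, 20 without wild-type isolation 1), and those highest in wild-type isolation 1 from 7 to 23 (23 without knockout isolation 1); with fewer arrays, overlap is rarer by construction. The same counts over all genes tested were not made with an array left out. Whether these counts of members exceed that background was therefore not tested. Under the 8 settings that kept all arrays, the median of isolation 1 minus isolation 2 over the members changed little. It stayed between 0.35 and 0.40 in the knockout and between 0.26 and 0.30 in the wild type. Signs of small differences turned with single arrays; the cause was not tested. The ranges with 1 array left out were -0.18 to 0.21 for Ddx58, -0.029 to 0.66 for Ifih1, -0.037 to 0.38 for Stat2, -0.87 to 0.27 for Ifit1, -0.19 to 0.37 for Usp18, -0.27 to 0.30 for Mx2, -0.10 to 0.31 for Cmpk2. They were -0.27 to 0.16 for Bst2, -0.23 to 0.42 for Ifi27, -0.24 to 0.28 for Ifi35, -0.066 to 0.75 for Iigp1, -0.092 to 0.26 for Gbp3, -0.23 to 0.18 for Tap1, -0.24 to 0.031 for B2m. For genes of the other lists they were -0.22 to 0.41 for Zbtb46, -0.037 to 0.040 for Cd3d, -0.042 to 0.48 for Gm4951, -0.12 to 0.41 for Gbp7, -1.15 to 0.10 for Cd1d1. With the mean over probe sets Ddx58 differed by -0.043. In all, 19 of 406 member values turned sign, and 20 of 34 members never did. Deviations of isolations with the same number correlated at 0.116 over all genes and at 0.261 over the 34 members, from 2 pairs, and the labels do not pair them. Outlier checks need 4 samples a group and could not be made.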

Other observations

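Probe sets that name several genes were kept out of the counts above, and some cover members or their relatives. The 1 for Isg15, the ubiquitin-like protein conjugated to other proteins during the interferon response, also names Gm9706. It read 10.25 and 9.54 in knockout isolations 1 and 2 and 9.72 and 9.07 in the wild type, with isolation 1 above isolation 2 in each genotype. A probe set naming Trim30a and Trim30d read 6.85, 6.26, 5.73 and 5.39 in the same order, without overlap, and differed by 0.99. The probe set naming H2-K1 and H2-D1 read 8.86, 8.80, 8.70 and 7.97, again lowest in wild-type isolation 2.

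Other relatives went different ways. The probe set of the T cell specific GTPases Tgtp1 and Tgtp2 read 5.22 and 5.40 in the knockout and 6.44 and 6.66 in the wild type, a difference of -1.24 without overlap, with isolation 2 the higher in both genotypes. The probe set of the class I relatives H2-Q4, H2-Q6 and H2-Q8 read 5.52 and 5.35 in the knockout and 4.50 and 2.84 in the wild type, and the one of H2-Q7 and H2-Q9 read 5.15, 4.78, 4.76 and 3.82, both lowest in wild-type isolation 2. These probe sets were chosen because their names include a listed gene, they were not tested, and which of the named genes gave the signal is unknown.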
